A study of Mus musculus with 48 samples.

Results

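Muscle transcripts of Cyp2b-null female mice given perfluorooctane sulfonate (PFOS) at 10 mg/kg/day were compared with those of Cyp2b-null females given 0 mg/kg/day. PFOS is a persistent fluorinated surfactant. The comparison takes every library whose labels name this genotype, sex and dose, which are 4 libraries at 10 mg/kg/day and 4 at 0 mg/kg/day of the 48 in the series. The study as a whole profiled gastrocnemius, a mostly fast-twitch calf muscle, in both sexes of Cyp2b-null and hCYP2B6-Tg mice dosed by oral gavage over 21 days, and its stated subject was mitochondrial metabolism in muscle. The mice of both groups compared here were gavaged for the same time and carry the same deletion of mouse Cyp2b genes, so the deletion is a background and not a variable. hCYP2B6-Tg mice carry the human gene CYP2B6. Ages, what the 0 mg/kg/day mice received, and when the mice last ate are not given in the labels. The labels number the mice within a group. Each mouse is 1 library, and the p-values of edgeR rest on the spread between mice within groups, taken from all 48 libraries. Values per mouse are listed in the order of mice 1 to 4. They are reads counted for a gene as a fixed share of its library (CPM), scaled by edgeR's TMM factors, which set libraries on the level of their typical gene. A log2 fold change of 1 means a doubling.

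Muscle burns fatty acids or glucose according to supply. In fasting, the nuclear receptors PPARα and PPARδ and the FOXO factors raise transcripts for fatty acid oxidation and for pyruvate dehydrogenase kinase 4 (Pdk4), which closes the entry of pyruvate into the tricarboxylic acid (TCA) cycle. After feeding, insulin raises SREBP-1c, a product of Srebf1 that switches on the enzymes making fatty acids from citrate, and restrains FOXO. These enzymes are scarce in muscle fibres and abundant in fat cells, which lie between the fibres of a dissected muscle.

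At 10 mg/kg/day the transcripts of de novo lipogenesis, led by Srebf1 and fatty acid synthase (Fasn), rose in Cyp2b-null females, while the fasting-type transcripts Pdk4 and Ucp3 fell. Transcripts for the respiratory chain and the TCA cycle were lower as well, as were those for fatty acid oxidation, some of which are also fasting-type. Of 15583 genes tested, 1979 (12.7%) passed an adjusted p of 0.05 in edgeR's quasi-likelihood test with Benjamini-Hochberg adjustment, 908 of them higher (5.83%) and 1071 lower (6.87%). The change was at least 2-fold for 42.7% of the higher and 18.5% of the lower genes. The 2 groups did not overlap in 2236 genes (14.3%), of which 1286 also passed the test. The test takes its estimate of spread from all 48 libraries, and with the 8 compared libraries alone 644 genes passed. Single mice carried weight, since 859 genes passed without mouse 3 at 10 mg/kg/day, 1160 without mouse 1 at 10 mg/kg/day, and 1253 and 1300 without mouse 2 or mouse 3 at 0 mg/kg/day.

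The promoters of the genes named first on each side, the lipogenic Fasn and Srebf1 and the fasting-type Pdk4 and Ucp3, are shown as the 250 bases before the RefSeq start, on the build GRCm38.p6, 5′ to 3′ along the gene. Srebf1 has several starts in RefSeq, and the promoter of the one closest to the gene's 3′ end is given. Capitals mark the CCAAT box, the binding sequence of the factor NF-Y, read on either strand (CCAAT or ATTGG). Ucp3 holds none in this window, nor do Acly, Acaca, Elovl6 and one further promoter of Srebf1.
Fasn (chr11:120824548-120824797, minus strand): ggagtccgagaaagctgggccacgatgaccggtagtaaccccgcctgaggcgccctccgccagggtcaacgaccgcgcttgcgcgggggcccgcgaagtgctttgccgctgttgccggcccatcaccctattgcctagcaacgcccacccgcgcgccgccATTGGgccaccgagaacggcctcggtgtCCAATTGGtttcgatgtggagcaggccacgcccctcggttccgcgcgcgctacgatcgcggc
Srebf1 (chr11:60210472-60210721, minus strand): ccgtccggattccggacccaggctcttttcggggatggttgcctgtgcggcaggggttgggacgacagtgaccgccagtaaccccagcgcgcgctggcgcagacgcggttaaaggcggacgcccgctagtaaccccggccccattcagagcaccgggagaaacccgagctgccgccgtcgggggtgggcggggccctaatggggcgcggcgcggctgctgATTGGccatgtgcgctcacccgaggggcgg
Pdk4 (chr6:5496279-5496528, minus strand): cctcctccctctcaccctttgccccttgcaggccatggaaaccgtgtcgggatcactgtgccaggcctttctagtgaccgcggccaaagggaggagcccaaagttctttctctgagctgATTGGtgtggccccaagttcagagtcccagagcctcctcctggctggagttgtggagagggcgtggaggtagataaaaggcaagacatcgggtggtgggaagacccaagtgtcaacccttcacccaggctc
Ucp3 (chr7:100472741-100472990, plus strand): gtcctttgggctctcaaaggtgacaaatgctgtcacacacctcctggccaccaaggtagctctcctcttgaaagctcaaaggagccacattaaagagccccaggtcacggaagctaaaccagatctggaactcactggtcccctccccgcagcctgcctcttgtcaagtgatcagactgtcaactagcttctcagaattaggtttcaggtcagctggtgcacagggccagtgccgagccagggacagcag
Among promoters of tested genes, 34.6% of 14172 held a CCAAT box. RefSeq gave 25 promoters for 18 of the lipogenic genes, of which 11 held the box, and 29 promoters for 25 of the fasting-type genes, of which 12 did. A sterol regulatory element, written TCACNCCAC, was found in 1.01% of all promoters, in 1 of the 25 lipogenic ones (Mlxipl) and in 3 of the 29 fasting-type ones (Acsl1, Ehhadh and Ucp2). An E-box, CACGTG, was found in 8.06% of all promoters, in 3 of the lipogenic and in 1 of the fasting-type ones. The FOXO sequence TGTTTAC was found in 2.28% of all promoters, in 2 of the lipogenic and in 0 of the fasting-type ones. All were searched on both strands, CACGTG reads the same on both, and matches of different motifs may share bases. These matches describe letters in a window and not bound sites.

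Total counts of the 8 libraries were 14093784 to 16213809. Libraries of the 10 mg/kg/day group detected 20300 ± 402 genes, against 18980 ± 405 in the 0 mg/kg/day group (SD, n = 4 each; exact permutation test, two-sided, p = 0.0286, the smallest that 4 against 4 allows, and 0.0572 adjusted over 4 library measures). All 8 had Xist (2651 to 3921 counts at 10 mg/kg/day, 2077 to 2144 at 0 mg/kg/day) and 0 counts of the Y-linked Ddx3y. The deletion could not be checked from these counts, because Cyp2b9 and Cyp2b13 had 0 counts in all 8 libraries and Cyp2b10 had 5, all in mouse 4 at 10 mg/kg/day. The extraction text in the labels names liver, whereas the muscle gene Myh4 had 462940 to 899169 counts at 10 mg/kg/day and 814220 to 1059862 at 0 mg/kg/day, and albumin (Alb) had 2 to 41 counts at 10 mg/kg/day and 0 to 1 at 0 mg/kg/day. Mouse 3 at 10 mg/kg/day also held lymph node transcripts, with 790 counts of Glycam1, which was at 0 in the other 7. Its 15 lymphocyte and lymph node markers summed to 267 CPM, against 8.18 to 21.6 CPM in the other mice at 10 mg/kg/day and 17.7 to 53.1 CPM at 0 mg/kg/day. Mouse 1 at 0 mg/kg/day stood apart in nerve markers (784 CPM summed, against 87 to 145 CPM in the others of its group and 82.6 to 266 CPM at 10 mg/kg/day). Library numbers in the labels were all higher at 10 mg/kg/day than at 0 mg/kg/day, so that an effect of the order behind these numbers and one of the dose cannot be told apart.

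Of 22 tested genes of de novo lipogenesis, 15 rose and 1 fell, with a median log2 fold change of 1.68, against 0.0256 over all genes. Without the 2 libraries holding lymph node or nerve transcripts, 13 rose and 0 fell. Over the 8 settings that leave out 1 library, 11 to 17 rose, and 8 rose when the spread was taken from the 8 libraries alone. The groups did not overlap in 7 higher members, against 7.07% of all genes, and in 1 lower member.

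Srebf1, the transcription factor of the pathway (ENSMUSG00000020538, chr11:60199089-60222581), had 173.9, 205, 147.7 and 110.97 CPM at 10 mg/kg/day, against 39.1, 31.0, 30.9 and 36.0 CPM at 0 mg/kg/day. Every mouse at 10 mg/kg/day lay well above every mouse at 0 mg/kg/day. Its log2 fold change was 2.22 ± 0.26 (SE; edgeR adjusted p = 6.01e-07). Reads of Rai1 on the opposite strand cannot be told apart from those of Srebf1 where the genes overlap, since the use of strand in counting is not given. Nr1h3, the sterol receptor LXRα that acts on the Srebf1 gene, had 28.0, 29.3, 28.9 and 26.2 CPM at 10 mg/kg/day and 22.1, 16, 21.1 and 16.5 CPM at 0 mg/kg/day, also without overlap, a rise of 0.57 ± 0.12 on the log2 scale (adjusted p = 0.00192). Mlxipl, the glucose-sensing partner ChREBP, had 71.5 to 129.2 CPM at 10 mg/kg/day and 102.9 to 125.02 CPM at 0 mg/kg/day and did not pass.

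Fasn, which assembles palmitate (ENSMUSG00000025153, chr11:120805846-120824547), had 2682, 202, 1135 and 40.7 CPM at 10 mg/kg/day, against 35.9, 7.42, 10.3 and 9.94 CPM at 0 mg/kg/day. The groups did not overlap, but mice 1 and 3 at 10 mg/kg/day were far above mice 2 and 4. Its log2 fold change was 5.99 ± 1.22 (adjusted p = 9.46e-04), and 4.85 without mouse 1 at 10 mg/kg/day or 6.79 without mouse 1 at 0 mg/kg/day. Acly, which splits citrate into acetyl-CoA, had 757, 44.5, 275 and 18.8 CPM at 10 mg/kg/day and 15.4, 18.4, 11.2 and 16.7 CPM at 0 mg/kg/day, with mouse 4 at 10 mg/kg/day just above the highest mouse at 0 mg/kg/day (log2 fold change 4.15 ± 0.68, adjusted p = 9.44e-05, and 2.86 without mouse 1 at 10 mg/kg/day). Acaca, the carboxylase that makes malonyl-CoA, had 335, 36.1, 154 and 16.7 CPM at 10 mg/kg/day and 17.3, 15.7, 10.9 and 14.3 CPM at 0 mg/kg/day, where mouse 4 at 10 mg/kg/day fell within the range at 0 mg/kg/day (3.22 ± 0.55, adjusted p = 1.48e-04, and 2.24 without mouse 1 at 10 mg/kg/day). The carboxylase of the mitochondrial surface, Acacb, which governs fatty acid entry, had 370 to 668 CPM at 10 mg/kg/day and 410 to 509 CPM at 0 mg/kg/day and did not pass.

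The same order of mice, 1, 3, 2 and 4 from high to low, recurred in other lipogenic genes. Slc25a1, the citrate carrier of mitochondria, had 117.5, 18.8, 71.2 and 4.53 CPM at 10 mg/kg/day and 5.03, 1.79, 1.45 and 2.03 CPM at 0 mg/kg/day, and the groups overlapped (4.35 ± 0.98, adjusted p = 0.00249). Elovl6, which lengthens palmitate, had 76.9, 6.17, 27.1 and 2.42 CPM at 10 mg/kg/day against 3.61, 0.824, 0.404 and 0.981 CPM at 0 mg/kg/day (4.25 ± 0.94, adjusted p = 0.00222). Mouse 4 at 10 mg/kg/day lay within the range at 0 mg/kg/day for both. Thrsp, a lipogenic nuclear protein known as Spot 14, had 253, 28.3, 134.2 and 11.4 CPM at 10 mg/kg/day against 11.6, 10.0, 12.4 and 6.41 CPM at 0 mg/kg/day (3.40 ± 0.64, adjusted p = 4.10e-04), again with overlap in mouse 4. Without mouse 1 at 10 mg/kg/day these 3 genes had log2 fold changes of 3.60, 3.01 and 2.52 and still passed. Scd1, which introduces the double bond of oleate, had 2760, 985, 1220 and 156 CPM at 10 mg/kg/day and 148, 12.8, 13.0 and 17.7 CPM at 0 mg/kg/day, with no overlap (4.74 ± 1.35, adjusted p = 0.0159). It did not pass without mouse 1 at 10 mg/kg/day (4.03, adjusted p = 0.0564) or without mouse 2, 3 or 4 at 0 mg/kg/day (4.42 to 4.46, adjusted p up to 0.0596). With the spread taken from the 8 libraries alone, Acaca, Elovl6 and Me1 did not pass (adjusted p = 0.0514, 0.0544 and 0.0649).

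Me1, the malic enzyme that supplies NADPH for lipogenesis, showed a smaller and more even change, with 660, 378, 467 and 419 CPM at 10 mg/kg/day and 326, 271, 348 and 279 CPM at 0 mg/kg/day (0.65 ± 0.15, adjusted p = 0.00271). The pentose phosphate genes G6pdx and Tkt, the other route to NADPH, rose by 2.59 ± 0.47 and 3.06 ± 0.64 on the log2 scale. G6pdx had 26.6, 7.78, 16.9 and 3.97 CPM at 10 mg/kg/day and 3.74, 2.54, 1.45 and 1.37 CPM at 0 mg/kg/day, so that its groups did not overlap, whereas those of Tkt did. Oxsm, which serves the separate fatty acid synthesis of mitochondria, fell, with 13.5, 14.4, 11.9 and 16.6 CPM at 10 mg/kg/day and 19.6, 19.0, 17.5 and 21.0 CPM at 0 mg/kg/day (−0.46 ± 0.11, adjusted p = 0.00406; −0.18 and not passing on library totals without scaling factors, −0.38 and not passing without the 2 libraries holding lymph node or nerve transcripts, and adjusted p = 0.0601 with the spread of the 8 libraries alone).

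**Figure D1:**
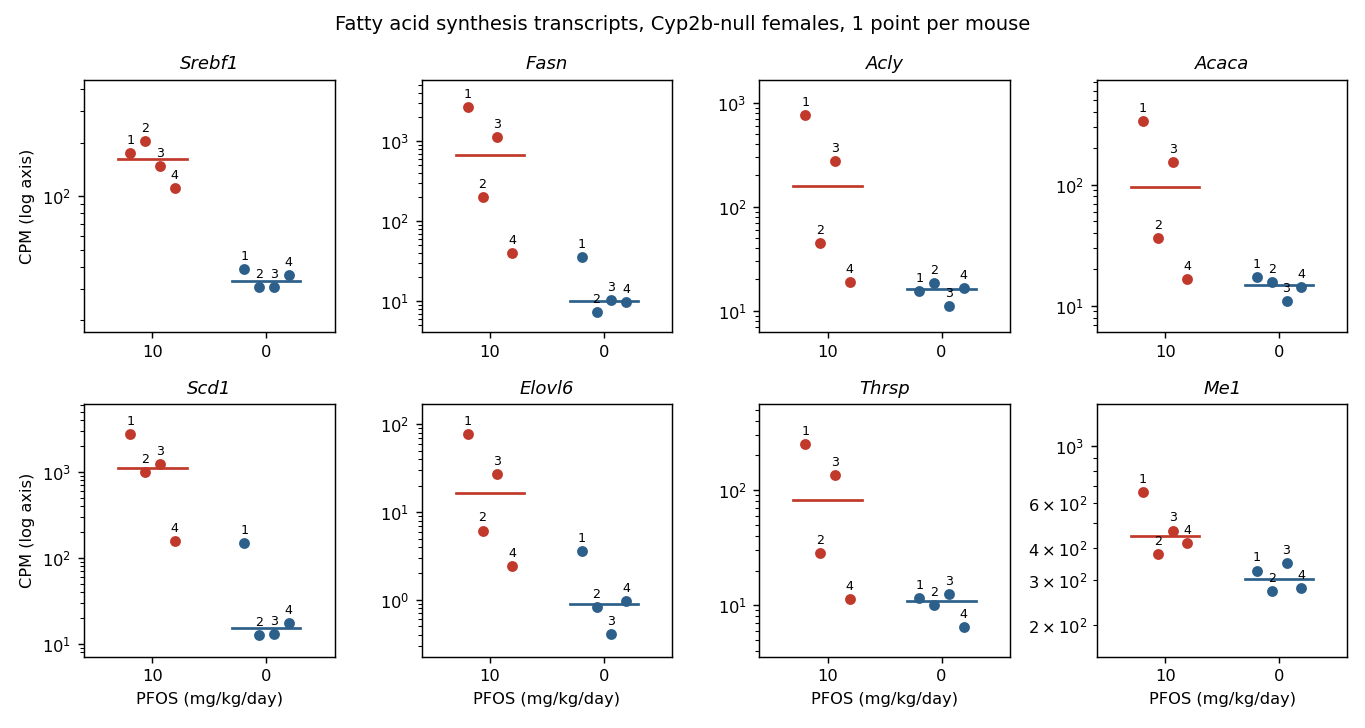
TMM-scaled CPM per mouse on a log axis for 8 genes of fatty acid synthesis in Cyp2b-null females, with 10 mg/kg/day (red) left of 0 mg/kg/day (blue), 1 point per mouse with its number and a line at the median of 4. Srebf1 separates the groups with little spread (110.97 to 205 CPM at 10 mg/kg/day, against 30.9 to 39.1 CPM at 0 mg/kg/day), whereas Fasn runs from 40.7 to 2682 CPM within the 10 mg/kg/day group.

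Transcripts of fat storage and of fat cells moved in the same mice. Of 20 genes of triglyceride synthesis and lipid droplets 6 rose and 3 fell, and 1 rose without mouse 1 at 10 mg/kg/day, 2 without mouse 3 at 10 mg/kg/day and 3 each without mouse 2, 3 or 4 at 0 mg/kg/day. Agpat2, an acyltransferase of triglyceride synthesis, had 93.8, 13.1, 40.2 and 2.79 CPM at 10 mg/kg/day and 4.90, 3.23, 2.50 and 3.93 CPM at 0 mg/kg/day (3.36 ± 0.74, adjusted p = 0.00225, 2.35 without mouse 1 at 10 mg/kg/day, and adjusted p = 0.0561 with the spread of the 8 libraries alone). Plin2, the droplet coat protein found in most cells, had 92.1, 26.9, 57.6 and 24.4 CPM at 10 mg/kg/day and 21.3, 20.3, 26.1 and 24.3 CPM at 0 mg/kg/day, with overlap (1.13 ± 0.28, adjusted p = 0.00632), and did not pass without mouse 1 at 10 mg/kg/day (0.66, adjusted p = 0.121) or with the spread of the 8 libraries alone (adjusted p = 0.108). Gpam, the first acyltransferase of the pathway, fell, with 101.1, 89.9, 90.2 and 92.1 CPM at 10 mg/kg/day and 154, 187, 127.5 and 144.2 CPM at 0 mg/kg/day (−0.72 ± 0.17, adjusted p = 0.00347; −0.42 and not passing on library totals without scaling factors).

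Of 19 adipocyte markers 8 rose and 1 fell, with a median log2 fold change of 0.77, and leaving out 1 library left 1 to 8 that rose. The lowest counts were 1 without mouse 1 and 2 without mouse 3 at 10 mg/kg/day, and 2, 2 and 3 without mouse 2, 3 or 4 at 0 mg/kg/day. Adipoq, the fat hormone adiponectin, had 105.2, 26.9, 65.5 and 8.75 CPM at 10 mg/kg/day and 15.9, 0.549, 1.21 and 3.01 CPM at 0 mg/kg/day. Its mice at 10 mg/kg/day ranked as they did for Fasn, and mouse 1 at 0 mg/kg/day was the highest of its group for both. The log2 fold change of Adipoq was 3.30 ± 1.09 (adjusted p = 0.038). Cfd, the fat cell protein adipsin, had 1003, 218, 642 and 63.5 CPM at 10 mg/kg/day and 118.4, 6.52, 9.85 and 28.7 CPM at 0 mg/kg/day (3.56 ± 1.13, adjusted p = 0.0316). Adipoq and Cfd each stopped passing in 5 of the 8 settings that leave out 1 mouse, with log2 fold changes of 2.69 to 3.42 there and adjusted p up to 0.133, and without mouse 1 at 0 mg/kg/day their log2 fold changes were 4.99 and 5.00. With the spread of the 8 libraries alone neither passed (adjusted p = 0.0801 and 0.0819). Pparg, the master regulator of fat cells, had 24.2, 7.01, 16.8 and 3.35 CPM at 10 mg/kg/day and 3.20, 2.68, 1.29 and 2.42 CPM at 0 mg/kg/day, with no overlap (2.41 ± 0.62, adjusted p = 0.00761; 1.90 and adjusted p = 0.0556 without mouse 1 at 10 mg/kg/day).

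The whole adipocyte list summed to 3538 to 5141 CPM at 10 mg/kg/day and 4988 to 5710 CPM at 0 mg/kg/day, a sum in which Car3, a carbonic anhydrase that muscle fibres also make, weighed most. Car3 fell, with 1423, 2875, 928 and 2960 CPM at 10 mg/kg/day and 4275, 3477, 4356 and 3276 CPM at 0 mg/kg/day (−0.91 ± 0.24, adjusted p = 0.0104), and did not pass without mouse 1 or mouse 3 at 10 mg/kg/day (−0.78 and −0.67) or with the spread of the 8 libraries alone. Fabp4, the fatty acid binding protein of fat cells and capillaries, had 127.8 to 394 CPM at 10 mg/kg/day and 142.5 to 171 CPM at 0 mg/kg/day and did not pass. Ucp1, which marks brown fat, had 0 counts in all 8 libraries. The 16 liver markers summed to 141.8, 80.7, 103.6 and 22.8 CPM at 10 mg/kg/day and 33.5, 1.79, 2.50 and 11.2 CPM at 0 mg/kg/day, mostly from Hp and Cyp2e1, and these sums rank the mice at 10 mg/kg/day as Fasn does. Of the 8 liver markers tested only Hp, haptoglobin, which fat cells also secrete, rose (4.22, adjusted p = 0.0242). The part of fat cells, or of these markers, in the lipogenic result was not tested. In a bulk muscle sample, more or fewer cells of a type and more or less RNA per cell cannot be told apart.

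Of 32 tested fasting-type and PPAR-responsive genes, 13 fell and 1 rose (Plin2), with a median log2 fold change of −0.48. The groups did not overlap in 12 lower members, against 7.28% of all genes. Leaving out 1 library left 5 to 13 that fell, with 7 and 5 without mouse 2 or mouse 3 at 10 mg/kg/day and 8 each without mouse 2 or mouse 4 at 0 mg/kg/day. Without the 2 libraries holding lymph node or nerve transcripts 6 fell. The count also varied with the scaling. With library totals left unscaled, the median of all genes moved to 0.327 and 91% of 4893 passing genes were higher, against 45.9% of 1979 with TMM scaling, and 4 members fell. With library sizes that leave out mitochondrial and the 20 most abundant genes the median of all genes was 0.168, 75.3% of 2752 passing genes were higher, and 7 members fell. Relative to the median of all genes, the list stood at −0.508 with TMM, −0.489 on unscaled totals and −0.501 on the reduced library sizes.

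Pdk4 (ENSMUSG00000019577, chr6:5483351-5496309) had 48.3, 78.4, 29.0 and 308 CPM at 10 mg/kg/day, against 989, 1506, 1033 and 2081 CPM at 0 mg/kg/day. All 4 mice at 10 mg/kg/day were below all 4 at 0 mg/kg/day, and mouse 4 kept the highest level of its group. The log2 fold change was −3.60 ± 0.75 (adjusted p = 0.00117), it passed with any 1 mouse left out, and it was −4.76 without mouse 4 at 10 mg/kg/day. Ucp3, the uncoupling protein of muscle mitochondria that fasting induces (ENSMUSG00000032942, chr7:100472990-100486432), had 21.3, 47.6, 17.95 and 76.2 CPM at 10 mg/kg/day and 232, 227, 220 and 188 CPM at 0 mg/kg/day. These groups were also apart, with a log2 fold change of −2.41 ± 0.44 (adjusted p = 2.63e-04). The predicted gene Gm10603 overlaps Ucp3 on the opposite strand.

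Acot2, a mitochondrial acyl-CoA thioesterase, had 8.35, 6.23, 6.69 and 9.74 CPM at 10 mg/kg/day and 29.4, 24.8, 17.4 and 36.2 CPM at 0 mg/kg/day (−1.80 ± 0.51, adjusted p = 0.0155), and narrowly did not pass without mouse 3 at 10 mg/kg/day (−1.74, adjusted p = 0.0614) or without both that mouse and mouse 1 at 0 mg/kg/day (−1.70). It is near-identical to neighbouring thioesterase genes, so its share of reads is uncertain. Slc25a34, an orphan carrier of the mitochondrial inner membrane, had 5.36, 1.22, 2.48 and 4.53 CPM at 10 mg/kg/day and 13.4, 27.1, 9.93 and 33.2 CPM at 0 mg/kg/day (−2.62 ± 0.69, adjusted p = 0.00928, and 0.0535 in limma voom). Both genes were lower in every mouse at 10 mg/kg/day. Angptl4, the secreted inhibitor of lipoprotein lipase, had 5.81, 1.67, 3.52 and 1.55 CPM at 10 mg/kg/day and 11.0, 8.10, 6.70 and 8.57 CPM at 0 mg/kg/day. Its groups did not overlap, yet it did not pass (−1.44 ± 0.60, adjusted p = 0.109). Fabp3, the heart-type fatty acid binding protein, did not pass either, at 82.4 to 186 CPM at 10 mg/kg/day and 157 to 457 CPM at 0 mg/kg/day (−1.26, adjusted p = 0.0564).

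**Figure D2:**
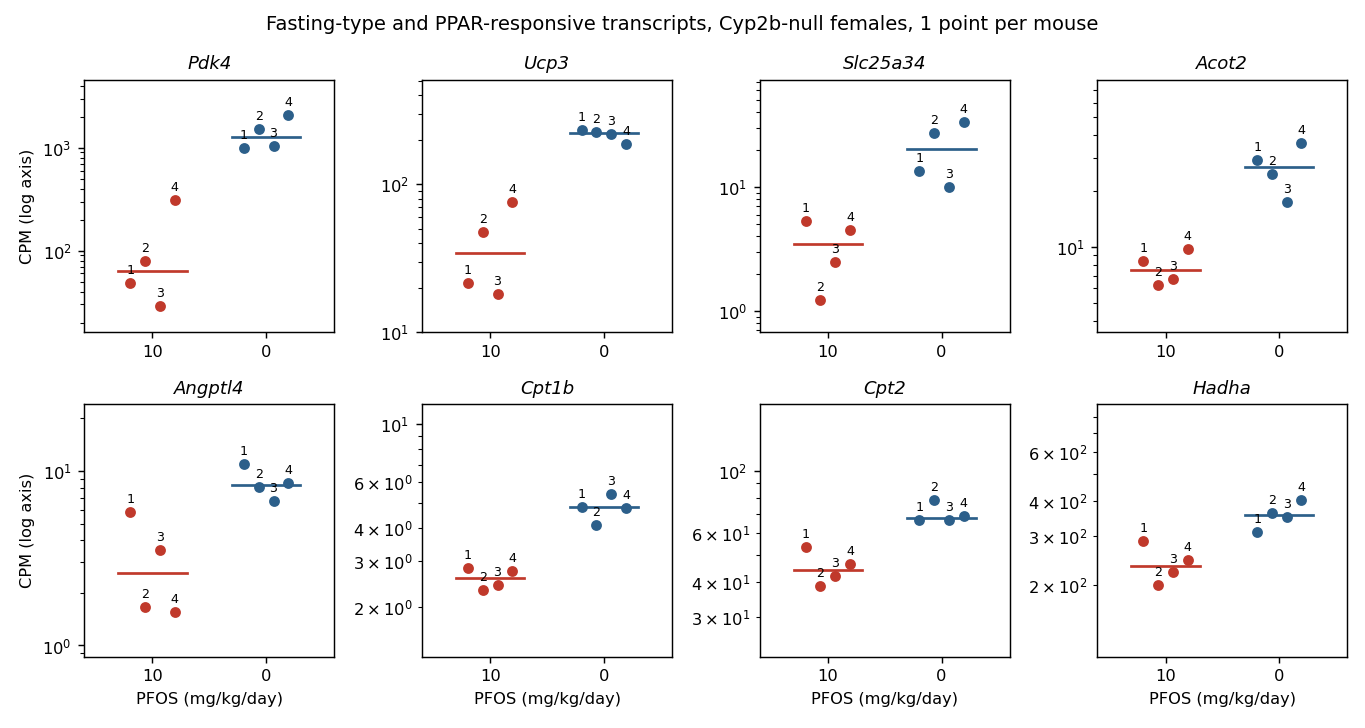
TMM-scaled CPM per mouse on a log axis for 8 fasting-type genes in Cyp2b-null females, with 10 mg/kg/day (red) left of 0 mg/kg/day (blue), 1 point per mouse with its number and a line at the median of 4. Pdk4 (29.0 to 308 CPM at 10 mg/kg/day, against 989 to 2081 CPM at 0 mg/kg/day) and Ucp3 (17.95 to 76.2 CPM, against 188 to 232 CPM at 0 mg/kg/day) lie far apart, and no gene shown overlaps between the groups. The genes drawn were chosen with earlier results of these data known. Over the whole lists, 12 of 32 fasting-type and 11 of 24 fatty acid oxidation genes were lower without overlap.

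Of 24 genes of fatty acid oxidation, 13 fell and 0 rose (median −0.49), with 7 that fell without mouse 2, 6 without mouse 3 at 10 mg/kg/day, and 8 each without mouse 2 or mouse 4 at 0 mg/kg/day. On unscaled library totals 3 fell. Cpt2, which releases acyl groups inside mitochondria, had 53.1, 38.8, 41.9 and 46.3 CPM at 10 mg/kg/day and 66.5, 78.6, 66.4 and 69.0 CPM at 0 mg/kg/day, without overlap (−0.64 ± 0.14, adjusted p = 0.00171). Acads, the short-chain acyl-CoA dehydrogenase, had 33.5, 34.5, 27.7 and 48.5 CPM at 10 mg/kg/day and 74.6, 76.6, 71.9 and 73.9 CPM at 0 mg/kg/day (−1.04 ± 0.16, adjusted p = 3.90e-05). Acads showed one of the clearest separations of the list. Decr1 (−0.65) and Hadha (−0.57), enzymes of the oxidation spiral, fell by similar amounts, but Decr1 did not pass without mouse 3 at 10 mg/kg/day (−0.54), nor Hadha without mouse 2 or 3 at 10 mg/kg/day or mouse 4 at 0 mg/kg/day (−0.50 to −0.55). On unscaled totals Cpt2 (−0.34), Decr1 (−0.37) and Hadha (−0.27) did not pass, while Acads did. The muscle carnitine palmitoyltransferase Cpt1b, the entry step, was low, with 2.31 to 2.82 CPM at 10 mg/kg/day and 4.12 to 5.41 CPM at 0 mg/kg/day, and its fall of −0.89 ± 0.29 (adjusted p = 0.0392) did not hold in 7 of the 8 settings that leave out 1 mouse (−0.83 to −0.96, adjusted p up to 0.112).

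The respiratory chain and the TCA cycle were lower in most members. The counts that fell were 29 of 36 for complex I, 14 of 14 for complexes II and III with cytochrome c, 10 of 15 for complex IV, 14 of 16 for complex V and 21 of 24 for the TCA cycle with pyruvate dehydrogenase. The medians were −0.56, −0.71, −0.50, −0.61 and −0.62, against 0.0256 for all genes. The only member to rise was Cox8a of complex IV (0.79, adjusted p = 0.0452), which overlapped between groups and stopped passing in 6 of the 8 settings that leave out 1 mouse and with the spread of the 8 libraries alone. Of 13 proteins encoded in mitochondrial DNA 11 fell (median −0.97), and mt-Atp8 and mt-Nd3 did not pass. Without mouse 3 at 10 mg/kg/day complex I had 17 that fell, and no other setting leaving out 1 mouse moved one of these 6 counts by over 1.5 times. With the spread taken from the 8 libraries alone 14 fell in complex I, 11 in complexes II and III, 4 in complex IV, 8 in complex V, 15 in the TCA cycle and 3 of the mitochondrially encoded proteins. On unscaled library totals the same 6 counts were 18, 13, 6, 11, 14 and 10.

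mt-Co1, the catalytic subunit of cytochrome oxidase encoded in mitochondrial DNA, had 16897, 17595, 13648 and 24732 CPM at 10 mg/kg/day and 29805, 42428, 37334 and 32788 CPM at 0 mg/kg/day (−0.97 ± 0.14, adjusted p = 1.57e-05, and 0.0621 with the spread of the 8 libraries alone). The highest mouse at 10 mg/kg/day stayed below the lowest at 0 mg/kg/day. All mitochondrially encoded transcripts together took 6.36, 6.05, 5.53 and 7.95% of counts at 10 mg/kg/day and 8.74, 12.99, 10.4 and 9.32% at 0 mg/kg/day, again without overlap (exact permutation test, two-sided, p = 0.0286, 0.0572 adjusted over 4 library measures). Among nuclear genes, Ndufs1 of complex I had 196, 219, 151 and 273 CPM at 10 mg/kg/day and 343, 454, 383 and 367 CPM at 0 mg/kg/day (−0.88 ± 0.14, adjusted p = 3.90e-05). Cox7a1, the muscle and heart form of a cytochrome oxidase subunit, had 29.4, 37.0, 16.6 and 57.4 CPM at 10 mg/kg/day and 70.9, 149, 106 and 79.2 CPM at 0 mg/kg/day (−1.53 ± 0.28, adjusted p = 3.14e-04). Cs, citrate synthase, had 562, 532, 482 and 668 CPM at 10 mg/kg/day and 796, 939, 866 and 816 CPM at 0 mg/kg/day (−0.61 ± 0.09, adjusted p = 2.30e-05). In each of these genes mouse 4 was the highest and mouse 3 the lowest at 10 mg/kg/day.

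Among 25 regulators of how mitochondria form, fuse and divide, 9 fell and 3 rose, with 1 that rose without mouse 1 or without mouse 3 at 10 mg/kg/day. Esrra, the estrogen-related receptor α that drives respiratory genes, had 70.1, 62.0, 58.8 and 80.8 CPM at 10 mg/kg/day and 110.5, 129.2, 101.9 and 124.5 CPM at 0 mg/kg/day (−0.78 ± 0.16, adjusted p = 9.86e-04). Sirt3, the mitochondrial deacetylase, had 5.53, 7.13, 4.81 and 6.89 CPM at 10 mg/kg/day and 10.6, 14.6, 13.6 and 15.1 CPM at 0 mg/kg/day (−1.15 ± 0.22, adjusted p = 5.69e-04). Neither gene overlapped between groups, though Psmd13 and Ric8a overlap Sirt3, and Trmt112 overlaps Esrra, on the opposite strand. Tfam, which packs and transcribes mitochondrial DNA, fell by 0.46 on the log2 scale, and did not pass on unscaled totals (−0.18) or with the spread of the 8 libraries alone (−0.46, adjusted p = 0.0881). The coactivator Ppargc1a had 27.0, 23.8, 22.9 and 34.5 CPM at 10 mg/kg/day and 26.4, 33.9, 33.2 and 36.5 CPM at 0 mg/kg/day, which overlapped and did not pass (−0.26 ± 0.20, adjusted p = 0.417, and 0.019 on unscaled totals).

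**Figure D3:**
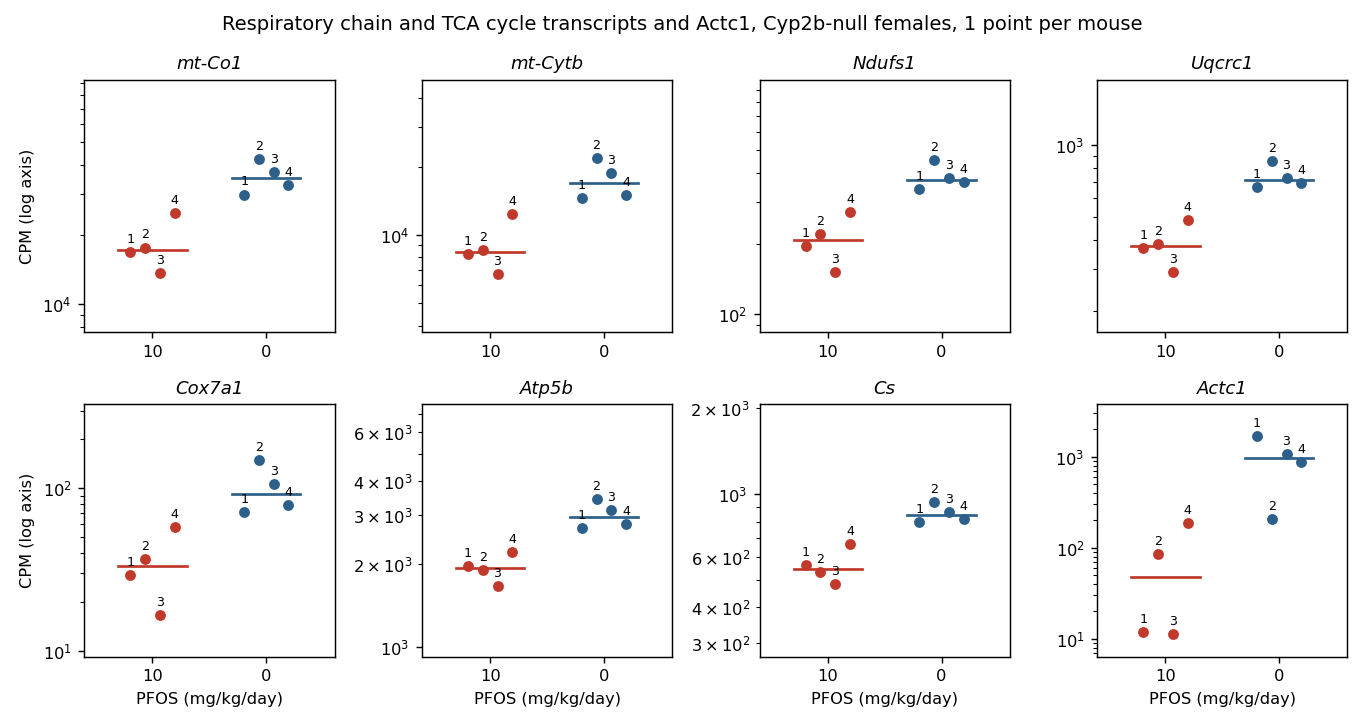
TMM-scaled CPM per mouse on a log axis for 7 genes of the respiratory chain and TCA cycle and for Actc1 in Cyp2b-null females, with 10 mg/kg/day (red) left of 0 mg/kg/day (blue), 1 point per mouse with its number and a line at the median of 4. No gene shown overlaps between the groups, and mouse 4 is the highest at 10 mg/kg/day, with 24732 CPM of mt-Co1, 273 CPM of Ndufs1 and 668 CPM of Cs. The genes drawn were chosen with earlier results of these data known. Over whole lists, 21 of 36 complex I, 9 of 15 complex IV and 9 of 13 mitochondrially encoded genes were lower without overlap. The same held for 13 of 14 genes of complexes II and III, 12 of 16 of complex V and 21 of 24 of the TCA cycle.

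Contractile and glycolytic transcripts were lower mainly in 2 of the mice. Among 30 glycolytic and glycogen genes 11 fell, and among 21 genes of fast fibres 8 fell, each with a median of −0.45. Without mouse 1 at 10 mg/kg/day these counts were 3 and 3, without mouse 3 they were 2 and 2, and with the spread taken from the 8 libraries alone both were 0. The fast counts also changed to 4 without mouse 3 at 0 mg/kg/day, and the glycolytic ones to 7 and 6 without mouse 1 or 3 at 0 mg/kg/day and to 17 without mouse 4 at 10 mg/kg/day. Myh4, the fastest myosin, had 26108, 53385, 28628 and 55774 CPM at 10 mg/kg/day and 72092, 55914, 73819 and 58404 CPM at 0 mg/kg/day (−0.67 ± 0.18, adjusted p = 0.01). Mice 1 and 3 had about the same low level, while mice 2 and 4 lay just under the range of the 0 mg/kg/day group. Eno3, muscle enolase, had 2180, 5504, 2284 and 7240 CPM at 10 mg/kg/day and 9494, 7586, 9843 and 7480 CPM at 0 mg/kg/day (−1.0 ± 0.26, adjusted p = 0.00864). Both genes stopped passing without mouse 1 (−0.51 for Myh4 and −0.79 for Eno3) or without mouse 3 (−0.53 and −0.80) at 10 mg/kg/day, and with the spread of the 8 libraries alone (adjusted p = 0.245 and 0.145). Myl1, the fast myosin light chain, passed with any 1 of the 8 mice left out, with 1518, 4139, 1598 and 5606 CPM at 10 mg/kg/day and 9075, 7658, 11602 and 8288 CPM at 0 mg/kg/day (−1.51 ± 0.29, adjusted p = 4.83e-04, and 0.0681 with the spread of the 8 libraries alone).

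Actc1, the cardiac actin that adult muscle keeps at a low level, had 11.8, 84.4, 11.4 and 186 CPM at 10 mg/kg/day and 1712, 207, 1074 and 869 CPM at 0 mg/kg/day, so that even the lowest mouse at 0 mg/kg/day was above all mice at 10 mg/kg/day. Its log2 fold change was −3.72 ± 0.81 (adjusted p = 0.00192), and −4.76 without mouse 4 at 10 mg/kg/day, and it did not pass with the spread of the 8 libraries alone (adjusted p = 0.0582). Nrep, named for neuronal regeneration, had 5.47, 29.6, 6.05 and 40.8 CPM at 10 mg/kg/day and 138.1, 133.6, 191 and 82.3 CPM at 0 mg/kg/day (−2.74 ± 0.41, adjusted p = 2.61e-05). Aplnr, the apelin receptor, had 1.97, 2.64, 2.68 and 2.67 CPM at 10 mg/kg/day and 9.25, 12.8, 8.15 and 12.7 CPM at 0 mg/kg/day (−2.11 ± 0.28, adjusted p = 6.79e-06). The spread of Aplnr within a group was far smaller than that of Actc1 or Nrep. Slow-fibre genes were uneven. Only myoglobin (Mb) of 18 fell, with 374, 173, 154 and 142.9 CPM at 10 mg/kg/day and 265, 1562, 468 and 1073 CPM at 0 mg/kg/day (−2.0 ± 0.59, adjusted p = 0.0199), and it did not pass without mouse 3 at 10 mg/kg/day (−1.88) or mouse 2 at 0 mg/kg/day (−1.51), in limma voom (adjusted p = 0.0837) or with the spread of the 8 libraries alone (0.0627). The slow myosin Myh7 ran from 39.8 to 1443 CPM at 10 mg/kg/day and from 2.95 to 642 CPM at 0 mg/kg/day.

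Genes that FOXO factors or glucocorticoids raise in wasting muscle did not rise as a group in Cyp2b-null females. Of 30 such targets 4 rose and 1 fell, against 5.83% and 6.87% of all genes, and 2 rose without mouse 3 at 10 mg/kg/day. The groups did not overlap in 4 higher members and 1 lower one, against 7.07% and 7.28% of all genes. None of the 4 that rose is among the genes named in this paragraph. The median was −0.053, and 0.0938 and 0.245 under the other 2 scalings. The median of all genes moved too, from 0.0256 to 0.168 with reduced library sizes and 0.327 on unscaled totals. Of 20 ubiquitin ligases and atrophy genes 0 rose and 3 fell, with a median of −0.20. On unscaled totals 2 rose and 2 fell, and the median was 0.106, still below the 0.327 of all genes. Fbxo32, the atrophy ligase atrogin-1, had 430, 166, 304 and 347 CPM at 10 mg/kg/day and 554, 689, 483 and 508 CPM at 0 mg/kg/day. Its groups did not overlap, but the fold change did not pass (−0.84 ± 0.36, adjusted p = 0.113). Trim63, the ligase MuRF1, had 191, 168.5, 229 and 231 CPM at 10 mg/kg/day and 267, 281, 415 and 334 CPM at 0 mg/kg/day, also apart and not passing (−0.66 ± 0.44, adjusted p = 0.342). The stress genes Depp1 and Ddit4 overlapped between groups, Depp1 with 11.7, 6.04, 7.98 and 12.5 CPM at 10 mg/kg/day and 7.48, 13.5, 21.0 and 14.3 CPM at 0 mg/kg/day.

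Some genes of insulin action did pass. Of 34 in the list 5 rose and 1 fell, and 3 rose without mouse 2 at 0 mg/kg/day. Over all genes 5.83% rose and 6.87% fell. The median of the list was 0.069, against 0.0256 over all genes, and the list was not tested as a set. Pik3r1, the regulatory subunit of PI3-kinase, had 204, 74.2, 148 and 62.2 CPM at 10 mg/kg/day and 31.0, 39.8, 27.2 and 47.6 CPM at 0 mg/kg/day (1.74 ± 0.25, adjusted p = 2.30e-05). Akt1, a kinase that relays the insulin signal, had 184.3, 82.8, 235 and 78.5 CPM at 10 mg/kg/day and 59.1, 61.7, 62.9 and 57.3 CPM at 0 mg/kg/day (1.27 ± 0.21, adjusted p = 1.01e-04). In both genes mice 1 and 3 were the highest and no mouse overlapped the other group, though Akt1 did not pass with the spread of the 8 libraries alone (adjusted p = 0.0572). Slc2a12, a glucose transporter, fell, with 8.29, 7.46, 6.50 and 8.99 CPM at 10 mg/kg/day and 15.1, 15.6, 13.2 and 16.9 CPM at 0 mg/kg/day (−0.96 ± 0.15, adjusted p = 3.01e-05). Irs2, an insulin receptor substrate that fasting raises in other tissues, had 30.0 to 34.3 CPM at 10 mg/kg/day and 29.9 to 38.6 CPM at 0 mg/kg/day and did not pass (−0.11, against 0.20 on unscaled totals).

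**Figure D4:**
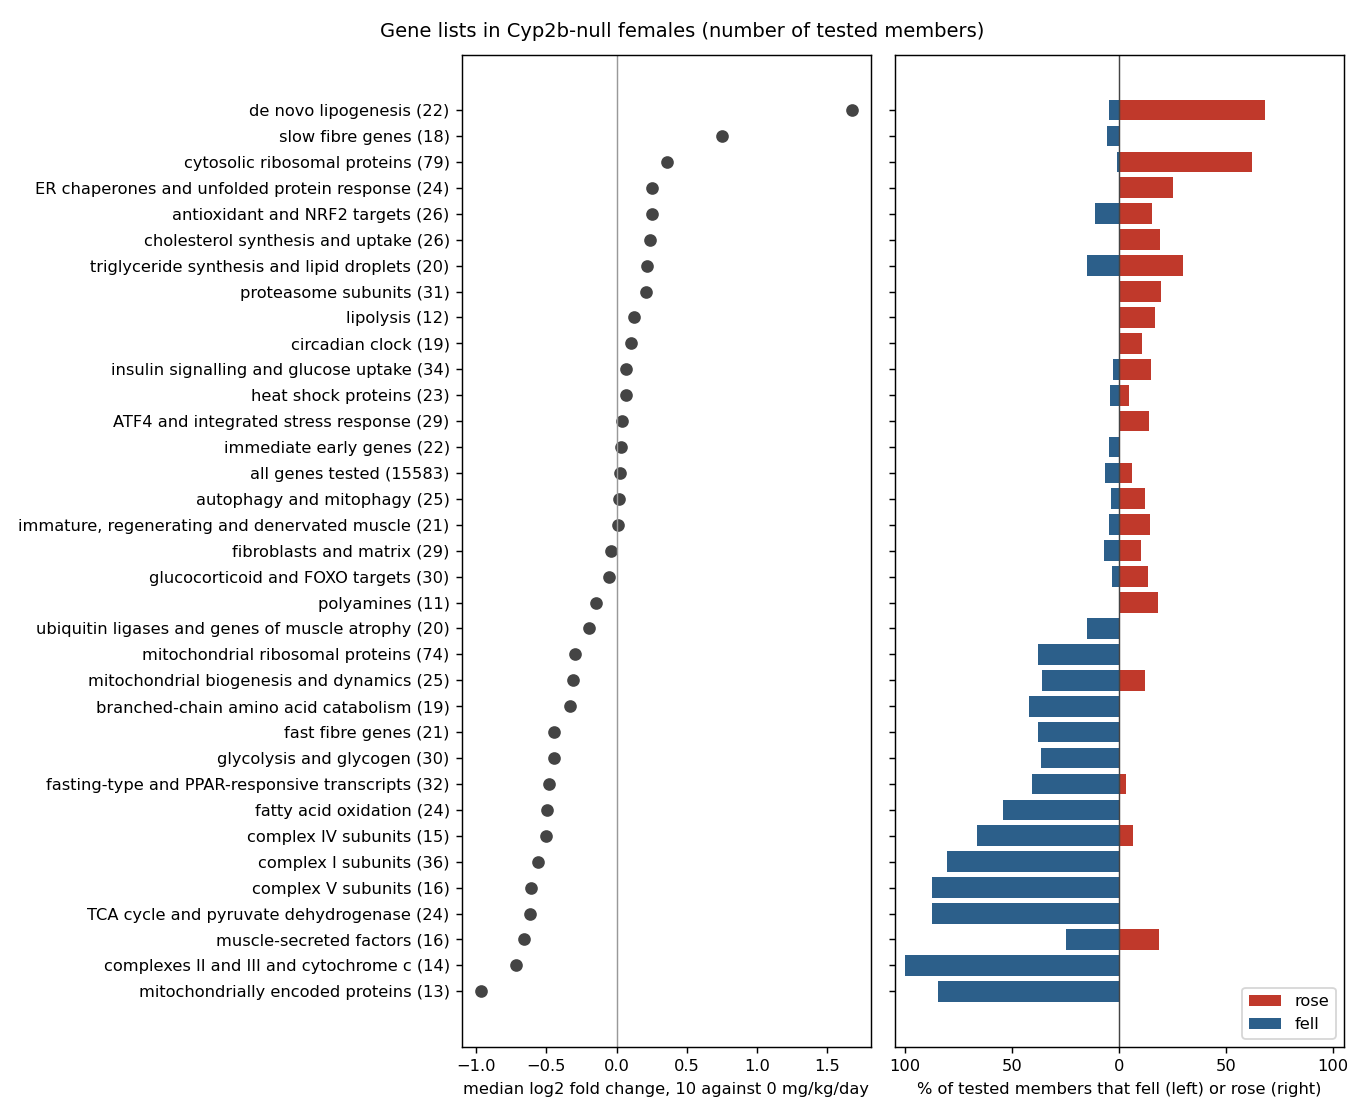
Median log2 fold change of 10 against 0 mg/kg/day in Cyp2b-null females for each pathway list (left, 1 point per list, cell type marker lists not drawn) and the percentage of its tested members that fell (blue, to the left of 0) or rose (red, to the right) at an adjusted p of 0.05 in edgeR (right), with the number tested in brackets. Among the lists drawn de novo lipogenesis has the highest median (1.68) and the mitochondrially encoded proteins the lowest (−0.97), with all genes tested at 0.0256.

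At the lower dose no gene passed. Both doses were set against the same 4 mice at 0 mg/kg/day. At 1 against 0 mg/kg/day, 0 of 15583 genes passed in edgeR (327 at an unadjusted p under 0.05), and 2 passed in DESeq2. Over the doses 0, 1 and 10 mg/kg/day, Srebf1 had 30.9 to 39.1, 31.2 to 70.4 and 110.97 to 205 CPM, so that the 1 mg/kg/day mice overlapped those at 0 mg/kg/day. Pdk4 had 989 to 2081, 487 to 1322 and 29.0 to 308 CPM over the same doses, and Ucp3 had 188 to 232, 149 to 202 and 17.95 to 76.2 CPM. Mouse 3 at 1 mg/kg/day had both the highest Srebf1 (70.4 CPM) and the lowest Pdk4 (487 CPM) of its group, with Fasn at 61.4 CPM, against 9.66 to 11.1 CPM in the other 3.

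The effect of 10 against 0 mg/kg/day was then set against the mean effect in hCYP2B6-Tg females, Cyp2b-null males and hCYP2B6-Tg males, each against its own 0 mg/kg/day group. These groups had 4 and 4, 3 and 4, and 4 and 5 mice at 10 and 0 mg/kg/day. In these, 4309 (27.7%), 2463 (15.8%) and 2882 (18.5%) genes passed. The difference passed for 52 genes (0.334%), 21 with a more positive (0.135%) and 31 with a more negative effect (0.199%) in Cyp2b-null females. Against hCYP2B6-Tg females alone it passed for 213 genes (1.37%), 60 of them more positive (0.385%) and 153 more negative (0.982%), and against Cyp2b-null males alone for 14 (0.0898%), all more negative. The share against hCYP2B6-Tg females was 0.237% to 0.706% without mouse 2 or 3 at 10 mg/kg/day or mouse 2, 3 or 4 at 0 mg/kg/day, 2.08% without mouse 4 at 10 mg/kg/day, and 0.0834% without library 2 of hCYP2B6-Tg females at 10 mg/kg/day. The share against Cyp2b-null males was 0.0193% to 0.0449% without mouse 2 at 10 mg/kg/day or mouse 2 or 3 at 0 mg/kg/day, and 0.16% and 0.443% without mouse 1 or mouse 4 at 10 mg/kg/day. Leaving out 1 library of the comparison moved the count of 52, against the mean of the 3 groups, from 12 (without mouse 2 at 0 mg/kg/day) to 214 (without mouse 4 at 10 mg/kg/day). It was 21 and 22 without mouse 2 or 3 at 10 mg/kg/day, 17 and 20 without mouse 3 or 4 at 0 mg/kg/day, and 104 when library 2 of hCYP2B6-Tg females at 10 mg/kg/day was left out.

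Srebf1 rose more in Cyp2b-null females than in the mean of the other 3 groups. Its log2 effects were 2.22 in Cyp2b-null females, 1.07 in hCYP2B6-Tg females, 0.60 in Cyp2b-null males and 0.25 in hCYP2B6-Tg males, of which only the first 2 passed. The difference was 1.58 ± 0.29 (adjusted p = 0.00562) and passed with any 1 mouse left out. Me1 and Plin2 also had more positive effects, by 0.82 (adjusted p = 0.0206) and 1.55 (adjusted p = 0.0208), and neither passed in the other 3 groups, where their effects ran from −0.63 to −0.06. The difference did not pass for Me1 without mouse 1 at 10 mg/kg/day or mouse 2 or 4 at 0 mg/kg/day (0.62 to 0.78), nor for Plin2 without mouse 1 or 3 at 10 mg/kg/day or mouse 2 or 4 at 0 mg/kg/day (1.08 to 1.58). For Fasn the difference of 3.82 ± 1.22 did not pass (adjusted p = 0.134), and Fasn also rose in hCYP2B6-Tg males (3.52, adjusted p = 0.0117). Of the 22 lipogenic genes 15 rose in Cyp2b-null females, against 3 in hCYP2B6-Tg females, 2 in Cyp2b-null males and 10 in hCYP2B6-Tg males. Over all genes the share that rose was 5.83% in Cyp2b-null females, against 14.2%, 7.45% and 7.92% in the other 3 groups, in the same order. The difference from the mean of the other 3 groups passed for 2 of the 22 lipogenic genes, against 0.334% of all genes. Against hCYP2B6-Tg females alone it passed for 2, and against Cyp2b-null males alone for 0 of the 22, Srebf1 and Me1 included.

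Pdk4 had an effect of −3.60 in Cyp2b-null females, against 1.20 in hCYP2B6-Tg females, −0.40 in Cyp2b-null males and −1.24 in hCYP2B6-Tg males, none of the last 3 passing. The difference of −3.45 ± 0.82 passed narrowly (adjusted p = 0.0464), and in 7 of the 8 settings that leave out 1 mouse it did not (−3.13 to −3.58, adjusted p up to 0.124). Ucp3, with effects of −2.41 in Cyp2b-null females and −0.25, −1.11 and −1.60 in the others, did not differ past the threshold (−1.43 ± 0.48, adjusted p = 0.161). Of the 32 fasting-type genes 13 fell in Cyp2b-null females, against 2, 6 and 2 in the others, in the same order. Over all genes the share that fell was 6.87%, against 13.5%, 8.36% and 10.6%. Against Cyp2b-null males alone the difference passed for 0 of the 32, Pdk4 and Plin2 included.

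Several stress and atrophy genes had more negative effects in Cyp2b-null females than in the mean of the other 3 groups. Depp1, a FOXO-induced gene, had effects of −0.55 (not passing) in Cyp2b-null females and 4.06, 3.58 and 3.44 in hCYP2B6-Tg females, Cyp2b-null males and hCYP2B6-Tg males, all 3 passing. The difference was −4.25 ± 0.68 (adjusted p = 0.00103), and the overlap of Depp1 with Rassf4 on the opposite strand applies to every group. Ddit4, an inhibitor of mTOR also called REDD1, differed by −4.12 ± 0.76 (adjusted p = 0.00562), but by −3.12 (adjusted p = 0.0655) without mouse 3 at 0 mg/kg/day. Fbxo32 differed by −2.49 ± 0.42 (adjusted p = 0.00178), with effects of −0.84 in Cyp2b-null females and 2.31, 1.56 and 1.07 in the other 3 groups, the last 3 passing. Trim63 differed by −2.57 ± 0.52 (adjusted p = 0.0172), yet did not pass without mouse 2 at 10 mg/kg/day or mouse 3 at 0 mg/kg/day (−2.49 and −2.43). Klhl38, an adaptor of ubiquitin ligases, fell in Cyp2b-null females (−0.96, adjusted p = 0.0238) and rose in the others by 1.62, 1.32 and 1.05, a difference of −2.29 ± 0.34 (adjusted p = 5.75e-04). Its fall in Cyp2b-null females stopped passing in 5 of the 8 settings that leave out 1 mouse (adjusted p up to 0.0993), on unscaled totals (−0.69) and with the spread of the 8 libraries alone. The predicted gene Gm15943 overlaps both Fbxo32 and Klhl38 on the opposite strand. Of the 30 glucocorticoid and FOXO targets 4 rose in Cyp2b-null females, against 23, 18 and 15 in the other 3 groups. Over all genes the share that rose was 5.83%, against 14.2%, 7.45% and 7.92%. The difference itself passed for 4 of the 30, against 0.334% of all genes. Against Cyp2b-null males alone it passed for 1 of the 30, and for 2 of the 20 ubiquitin ligases and atrophy genes, against 0.0898% of all genes.

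Arhgap26, a GTPase-activating protein, had 14.3, 18.9, 16.6 and 15.4 CPM at 10 mg/kg/day and 11.1, 11.7, 8.23 and 12.5 CPM at 0 mg/kg/day, apart but not passing (0.58 ± 0.25, adjusted p = 0.118). In the other 3 groups it rose by 1.86, 3.07 and 2.36, and the difference was −1.85 ± 0.29 (adjusted p = 9.70e-04). Eef2, the elongation factor of translation, had an effect of −0.04 in Cyp2b-null females, not passing. On unscaled totals it passed as a rise of 0.26 (adjusted p = 0.00814), below the median of all genes there (0.327). Eef2 rose by 0.45, 0.73 and 0.58 in the others, a difference of −0.62 ± 0.11 (adjusted p = 0.00178). Of the 36 complex I genes 29 fell in Cyp2b-null females, against 29, 25 and 30 in hCYP2B6-Tg females, Cyp2b-null males and hCYP2B6-Tg males, and the share of all genes that fell was 6.87%, against 13.5%, 8.36% and 10.6%. Of the 24 TCA cycle genes 21 fell, against 18, 20 and 15. The difference passed for 0 genes of either list.

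**Figure D5:**
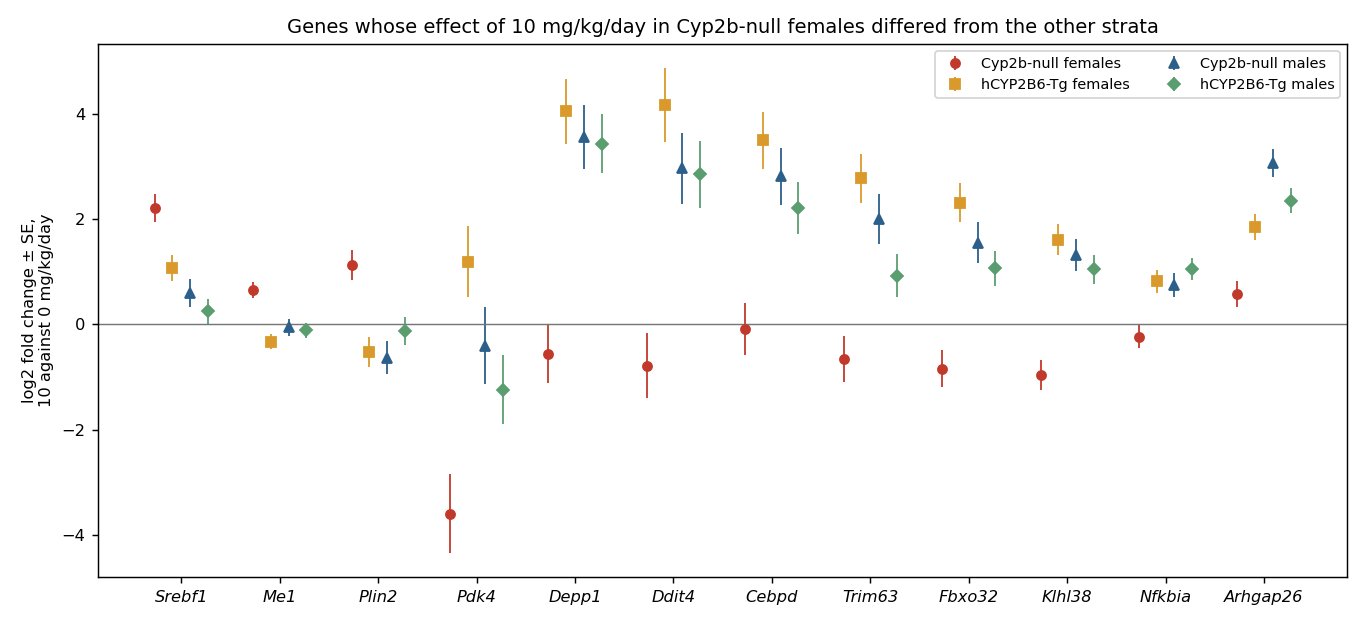
Log2 fold change of 10 against 0 mg/kg/day, with the standard error of edgeR's fit, for named genes in Cyp2b-null females and in hCYP2B6-Tg females, Cyp2b-null males and hCYP2B6-Tg males. Depp1, Ddit4 and Fbxo32 are above 0 in the last 3 (1.07 to 4.18) and below it in Cyp2b-null females (−0.84 to −0.55), while Srebf1 is highest in Cyp2b-null females (2.22).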

How the data were processed

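RNA from gastrocnemius of single mice was sequenced, and raw read counts of 54532 genes in 48 libraries were deposited by the authors. Alignment with HISAT2 to GRCm39 is named in the submitters' processing notes, whereas the deposited coordinates are those of GRCm38. No source used here gives the counting program or its use of strand. All columns were matched to samples by their names. Total counts of the 8 compared libraries were 14093784 to 16213809, and the series ran from 11571142 to 19921061.

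Counts were tested with edgeR 4.0.16 in R 4.3.3 (filterByExpr, TMM scaling, quasi-likelihood test) over all 48 libraries in 12 groups of genotype, sex and dose, leaving 15583 genes, 36 residual degrees of freedom and a biological coefficient of variation of 23.5%. P-values were adjusted by Benjamini-Hochberg over all tested genes at 0.05. Levels are TMM-scaled CPM, fold changes are log2, and errors are standard errors. The effect of 10 mg/kg/day was also compared between groups as an interaction. Single library measures were compared by exact permutation tests. DESeq2 1.42.0, limma 3.58.1, other scalings and filters, smaller fits, a replicate block and leaving out each mouse were alternatives, and leaving out libraries with transcripts of other tissues, or 1 hCYP2B6-Tg female library, was chosen after seeing the data. The method was tested on simulated data.

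Members and gene lists were chosen with earlier results of these data known. Named genes were the 15 largest rises and 15 largest falls without overlap and with a mean log2 CPM of at least 1, up to 4 passing members of smallest p per list, the 8 of smallest p in the interaction, and a fixed set that includes Fasn, Srebf1, Pdk4, Ucp3, Fbxo32 and Adipoq, from which the text takes those its account turns on, and of which 1 gene is not reported here. Other list members, such as Nr1h3, Oxsm, Mlxipl, Acacb, Fabp3, Fabp4, Plin1 and Cebpd, were named for their role after their values were seen. Promoters were taken from RefSeq on GRCm38.p6.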

Additional observations from a re-analysis of the deposited data

Results flagged for a closer look

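Outlying mice within a group of 4 were looked for by Dixon's test at its 95% critical value in 252 groups, of which chance picks out about 1 in 20. All that were picked out are given here. Their number is about what chance alone would give, so that no single one can be told apart from chance. Mouse 1 at 0 mg/kg/day stood above the rest of its group in lipogenic and fat cell genes, with 35.92 CPM of Fasn (others 7.416 to 10.25), 148.1 CPM of Scd1 (12.77 to 17.66), 50 CPM of Scd2 (11.3 to 14.72), 5.034 CPM of Slc25a1 (1.453 to 2.028) and 15.92 CPM of Adipoq (0.5494 to 3.009). The same mouse was high in the lymphatic and macrophage gene Lyve1 at 2.109 CPM (0.4579 to 0.7265) and in the leukocyte gene Coro1a at 1.905 CPM (1.178 to 1.236). Mouse 3 at 10 mg/kg/day had 60.95 CPM of Coro1a (2.057 to 2.933) and 1.934 CPM of the endothelial gene Apold1 (1.116 to 1.221). Mouse 1 at 10 mg/kg/day had 374.3 CPM of Mb (142.8 to 173.1) and, as its group's lowest, 1.974 CPM of Aplnr (2.635 to 2.678). At 0 mg/kg/day, mouse 4 had 641.8 CPM of Myh7 (2.953 to 69.82) and mouse 3 had 173.5 CPM of the ribosomal gene Rps20 (140.8 to 144.6).

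The effect of 10 mg/kg/day in Cyp2b-null females differed from the mean of the other 3 groups, by edgeR's test of that difference, in 14 of the genes named. This count is fixed in part by the choice of genes, since the 8 of smallest p in the same test were taken for naming. Over all genes the difference passed for 52 (0.334%). For Srebf1 and the other genes with a more positive effect the values come first. The effect was more positive by 1.58 on the log2 scale for Srebf1, 0.817 for Me1, 1.55 for Plin2 and 0.804 for Hps5, a gene of lysosome-related organelles. It was more negative for Pdk4 (−3.45), Fbxo32 (−2.49), Trim63 (−2.57), Klhl38 (−2.29), Depp1 (−4.25), Ddit4 (−4.12), Cebpd (−2.93), Nfkbia (−1.10), Arhgap26 (−1.85) and Eef2 (−0.624). Srebf1, Depp1, Fbxo32, Klhl38, Arhgap26 and Eef2 passed with any 1 of the 8 mice left out. Of the others, Hps5 did not pass without mouse 2 at 0 mg/kg/day (0.739, adjusted p = 0.0567), Cebpd without mouse 2 at 10 mg/kg/day or mouse 3 at 0 mg/kg/day, nor Nfkbia without either of these or mouse 2 at 0 mg/kg/day.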

How the results depend on the processing

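The directions of the lipogenic, respiratory and TCA lists were kept under every scaling, whereas counts moved. Against 1979 genes (908 higher, 1071 lower), library totals without scaling gave 4893 (4453 higher, 440 lower, 1347 shared), reduced library sizes 2072 higher and 680 lower, limma voom 2975 (1394 higher), the 8 libraries alone 644 (272 and 372, with 594 shared), and leaving out both libraries with other tissues 756 (314 and 442). Leaving out 1 mouse gave 859 to 2878 genes, 366 to 1338 higher and 493 to 1540 lower. Lipogenic genes that rose (15) were 8 with the 8 libraries alone and 11 to 17 with 1 mouse left out. Fasting-type genes that fell (13) were 4 on unscaled totals, 7 with reduced sizes, 8 with the 8 libraries alone, 6 without both libraries and 5 to 13 with 1 mouse left out. At 1 mg/kg/day DESeq2 passed 2. Genes passing in the difference from the mean of the other 3 groups, as a share of the same 15583 genes throughout, were 0.334% (52 genes), and 0.783% unscaled, 0.552% with a stricter filter, 1.32% in DESeq2, 1.21% in voom, 0.173% without both libraries, 0.667% without hCYP2B6-Tg female 10 mg/kg/day library 2 and 0.077% to 1.37% with 1 mouse left out. Against hCYP2B6-Tg females the share was 1.37%, and 0.821% with no filter, 2.91% in DESeq2, 0.462% in voom, 0.597% with the replicate block, 0.0834% without that library and 0.237% to 2.08% with 1 mouse left out. Against Cyp2b-null males it was 0.0898%, and 0.276% unscaled, 0.237% with reduced sizes, 0.173% with no filter, 0.167% with a stricter one, 0.545% in DESeq2, 2.65% in voom and 0.0193% to 0.443% with 1 mouse left out. Same-numbered mice correlated at −0.157 to 0.0496 in their deviations, and differently numbered ones at −0.211 to 0.249. So few correlations cannot decide whether the numbers pair the mice, and the labels do not say so. The replicate block gave 1737 genes, 1640 of them shared. Signs turned only in genes that did not pass with TMM scaling, and of these values only that of Eef2 on unscaled totals passed (0.259, adjusted p = 0.00814). Unscaled totals, where the median of all genes was 0.327, also turned Acot1 (0.116), Irs2 (0.198), Ppargc1a (0.0194), Cebpd (0.251), Mlxipl (0.0129) and Nfkbia (0.128). With reduced sizes they were Eef2 (0.103), Irs2 (0.0367) and Cebpd (0.0771), in voom Acot1 (0.396), Hps5 (−0.00195) and Cebpd (0.109), with the replicate block Acot1 (0.0588), and without both libraries Eef2 (0.0132). With 1 mouse left out they ran from −0.0815 to 0.224 in Acacb, −0.354 to 0.317 in Cebpd, −0.085 to 0.0278 in Eef2, −0.551 to 0.558 in Acot1, −0.0173 to 0.135 in Hps5, −1.12 to 0.214 in Ddit4 and −0.464 to 0.0495 in Nfkbia. The difference in total count ran from −483900 to 222700, that in genes detected from 1125 to 1435, in mitochondrial share from −4.427 to −3.011 and in the share of the 20 most abundant genes from −7.963 to −4.777 percentage points, the last passing only without mouse 4 at 10 mg/kg/day. The mitochondrial share did not pass without mouse 2 or 3 at 10 mg/kg/day or mouse 2 at 0 mg/kg/day (exact permutation test, p = 0.0571 each, not adjusted). The causes were not tested.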

Other observations

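Among transcripts of the machinery that makes and degrades proteins, most cytosolic ribosomal proteins rose, and fewer members of the proteasome and chaperone lists did. Over all genes 5.83% rose and 6.87% fell. Of 79 cytosolic ribosomal proteins 49 rose and 1 fell at 10 mg/kg/day in Cyp2b-null females (median log2 fold change 0.36), with 28 that rose without mouse 3 at 10 mg/kg/day, 31 and 32 without mouse 1 or 4 at 0 mg/kg/day, 16 of 78 without the 2 libraries holding lymph node or nerve transcripts, and 73 on library totals without scaling factors. Rps20, of the small subunit, had 231, 295, 299 and 232 CPM at 10 mg/kg/day and 144.6, 142.9, 173 and 140.8 CPM at 0 mg/kg/day, without overlap (0.81 ± 0.11, adjusted p = 1.57e-05). Of 74 mitochondrial ribosomal proteins 28 fell and 0 rose, with 14, 18 and 17 that fell without mouse 3 or 1 at 10 mg/kg/day or mouse 2 at 0 mg/kg/day, and 3 that rose and 3 that fell on unscaled totals. Of 31 proteasome subunits 6 rose, and 3 rose without mouse 3 at 10 mg/kg/day or without the 2 libraries holding lymph node or nerve transcripts. Psmd8, of its regulatory cap, had 278, 150, 299 and 133 CPM at 10 mg/kg/day and 93.1, 102.1, 116.6 and 124 CPM at 0 mg/kg/day (0.98, adjusted p = 8.35e-04, and 0.0602 with the spread of the 8 libraries alone), with mice 1 and 3 again the highest. Of 24 chaperones of the endoplasmic reticulum 6 rose, but 0 without mouse 3 and 1 without mouse 1 at 10 mg/kg/day, and 0 without the 2 libraries holding lymph node or nerve transcripts.

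Per2, Itga7 and Igfbp3 changed evenly across mice. The clock gene Per2 had 11.4, 12.5, 15.9 and 19.2 CPM at 10 mg/kg/day and 3.74, 6.04, 5.00 and 4.12 CPM at 0 mg/kg/day (1.64 ± 0.35, adjusted p = 0.0018), and the times of tissue collection are not given in the labels. Itga7, the laminin receptor of muscle fibres, had 193, 150, 178 and 130 CPM at 10 mg/kg/day and 91.6, 99.6, 97.5 and 103 CPM at 0 mg/kg/day (0.73 ± 0.14, adjusted p = 5.02e-04). Igfbp3, which binds insulin-like growth factors, had 54.7, 61.6, 63.2 and 37.9 CPM at 10 mg/kg/day and 20.1, 18.1, 14.0 and 19.4 CPM at 0 mg/kg/day (1.6 ± 0.25, adjusted p = 3.90e-05). The groups were apart in all 3 genes. Calcr, the calcitonin receptor that marks resting satellite cells, had 0.113, 0.257, 0.198 and 0.186 CPM at 10 mg/kg/day and 1.16, 0.481, 2.50 and 1.18 CPM at 0 mg/kg/day (−2.76, adjusted p = 0.00222), which are 2 to 4 reads at 10 mg/kg/day and 7 to 31 reads at 0 mg/kg/day. The satellite cell markers did not fall as a group, since 2 of 10 rose and 1 fell. They summed to 225.6 to 307.3 CPM at 10 mg/kg/day and 187.8 to 221 CPM at 0 mg/kg/day. Gpnmb, a glycoprotein of macrophages, had 8.06, 6.23, 4.12 and 3.23 CPM at 10 mg/kg/day and 0.884, 1.1, 0.565 and 1.24 CPM at 0 mg/kg/day (2.49, adjusted p = 0.003). Macrophage markers summed to 40.6 to 78.6 CPM at 10 mg/kg/day and 22.4 to 42.9 CPM at 0 mg/kg/day, with 3 of 13 that rose, 2 in 5 of the settings that leave out 1 mouse and 6 without mouse 4 at 10 mg/kg/day. The part of these cells in the other results was not tested.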
